A study of Mus musculus with 18 samples.

Results

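The subject is 81 nuclear genes for the subunits of oxidative phosphorylation, out of 19752 genes measured by a probe set with a single gene symbol. They were chosen by symbol alone (Nduf followed by a, b, c, s or v and a number, Sdha to Sdhd, Uqcr, Cox4 to Cox8, and Atp5). No measured value enters this rule, but it was chosen with earlier results of these data known. They divide into 35 genes for complex I, 4 for complex II, 8 for complex III, 17 for complex IV and 17 for complex V. The RefSeq table held 87 protein-coding genes of this pattern, and the other 6 were not analysed here. Subunits encoded by mitochondrial DNA were not analysed here either. Whole-transcript arrays (Affymetrix Mouse Gene 1.0 ST, 18 in all) gave the levels in 9 sorted immune cell populations, each with 2 arrays. All animals were male B6 mice of 6 weeks that had received 10000 U of IFNg (interferon gamma) subcutaneously, and all cells were taken at 2 h. Dendritic cells (DC, sorted as CD11c+ MHCII+ Flt3+), granulocytes (GN, Ly6G+), NK cells (NK, NK1.1+ TCRB-), NK1.1+ T cells (NKT, also TCRB+), CD4+ T cells (T4, TCRB+), CD8+ T cells (T8, TCRB+), gamma delta T cells (Tgd, TCRgd+ TCRB-) and CD25+ CD4+ T cells (Treg, TCRB+) came from spleen. Macrophages (MF, F4/80+ ICAM2+) came from the peritoneal cavity, so for them tissue and cell type cannot be told apart. Untreated mice were not analysed here, so the values compare populations of treated animals and say nothing of a response to IFNg.

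Oxidative phosphorylation makes ATP in the inner mitochondrial membrane. Complex I (NADH dehydrogenase) and complex II (succinate dehydrogenase, also an enzyme of the citric acid cycle) pass electrons to ubiquinone, complex III (cytochrome bc1) passes them to cytochrome c, and complex IV (cytochrome c oxidase) passes them to oxygen. Complexes I, III and IV pump protons, and complex V (ATP synthase) uses the proton gradient. Neutrophils, the main Ly6G+ cells, have few mitochondria and live largely on glycolysis, while resting T cells and tissue macrophages rely more on respiration. Many of these genes have short promoters without a TATA box, in which sites for the factor NRF1 and for ETS factors such as GABP are well known.

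RefSeq (GRCm38.p6) start regions were given for 66 of the 81 genes. The window of 300 bases, from 250 before to 50 after the start, was searched on both strands for 4 short motifs. The NRF1-like letters GCGCNTGCG were present in 21 of the 66 windows (31.8%), against 9.85% of the 15483 windows of genes on the array. The ETS-like letters CCGGAAG were present in 16 (24.2%, against 12.6%). The YY1-like letters AAGATGGCG, which can hold a start codon, were present in 6 (9.09%, against 2.12%). The GC box GGGCGG was present in 27 (40.9%, against 50.1%). The 4 stretches below belong to genes named in the results, and each holds an NRF1-like or ETS-like match. The same 150 bases of Atp5g1, Ndufa10, Ndufc2 and Ndufa9, which were also lower in granulocytes, held neither. Atp5g2 (chr15:102671048-102671197, minus strand), Ndufa11 (chr17:56717612-56717761, plus strand) and Ndufs3 (chr2:90904722-90904871, minus strand) were lower in granulocytes, and Uqcr11 (chr10:80406822-80406971, minus strand) was the gene most raised in macrophages over dendritic cells. Each stretch is the 150 bases before the annotated start, and capitals mark an NRF1-like match (Atp5g2 and Ndufa11) or an ETS-like match (Ndufs3 and Uqcr11).

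Atp5g2: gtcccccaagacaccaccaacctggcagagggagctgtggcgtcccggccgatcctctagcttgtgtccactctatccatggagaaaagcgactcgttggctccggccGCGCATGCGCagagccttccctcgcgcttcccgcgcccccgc
Ndufa11: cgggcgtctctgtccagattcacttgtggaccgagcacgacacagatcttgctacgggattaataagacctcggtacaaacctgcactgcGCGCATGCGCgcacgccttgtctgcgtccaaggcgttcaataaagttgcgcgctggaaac
Ndufs3: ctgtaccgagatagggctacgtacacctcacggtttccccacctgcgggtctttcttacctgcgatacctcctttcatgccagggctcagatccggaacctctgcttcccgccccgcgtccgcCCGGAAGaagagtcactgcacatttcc
Uqcr11: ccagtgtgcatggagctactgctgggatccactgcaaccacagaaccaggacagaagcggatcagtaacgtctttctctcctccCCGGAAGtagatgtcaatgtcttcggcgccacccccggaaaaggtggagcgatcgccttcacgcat

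In Atp5g2 and Ndufa11 the marked letters match on both strands, as 2 overlapping matches that begin 42 and 41 bases before the start in Atp5g2 and 60 and 59 bases before it in Ndufa11. The ETS-like match begins 27 bases before the start of Ndufs3 and 66 bases before that of Uqcr11. Among the 11 windows of genes that were at least 2-fold lower in granulocytes, 4 held the NRF1-like letters (36.4%; Atp5g2, Atp5g3, Atp5o and Ndufa11), close to the share among all 66. The ETS-like letters were present in 1 of the 11 (Ndufs3), the YY1-like letters in 1 (Ndufa9) and the GC box in 3 (Atp5g2, Ndufa10 and Ndufs3). A match describes the letters only and does not show that a factor binds there.

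Subunit genes were lowest in granulocytes and highest in peritoneal macrophages. In granulocytes the median of complex IV, which counts muscle, testis and lung forms, was slightly above 0. To set the complexes side by side without comparing probe sets, each gene was centred on its mean over the 9 populations, on the log2 scale, and the median over the genes of a complex was taken on each array. For complex I this median was -0.42 on both GN arrays and 0.35 and 0.36 on the MF arrays, against -0.30 to 0.21 on the other 14. For complex V it was -0.57 and -0.48 in GN and 0.42 and 0.35 in MF, against -0.20 to 0.25. Neither population overlapped with any other array in these 2 complexes. For complex II the GN arrays stood at -0.29 and -0.30 and the MF arrays at 0.42 and 0.45, again outside all others. Complex III gave -0.19 and -0.25 in GN, within reach of 1 Tgd array at -0.27, and 0.37 and 0.42 in MF, above all others. For complex IV the GN arrays stood at 0.09 and 0.06 and the MF arrays at 0.16 and 0.10, inside the range of the other arrays, from -0.19 to 0.15, but for 1 MF array. Over all genes the same median was 0.08 and 0.11 in GN and -0.05 and -0.09 in MF, opposite in sign to the median over the 81 genes (-0.32 and -0.31 in GN, 0.37 and 0.35 in MF).

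**Figure D1:**
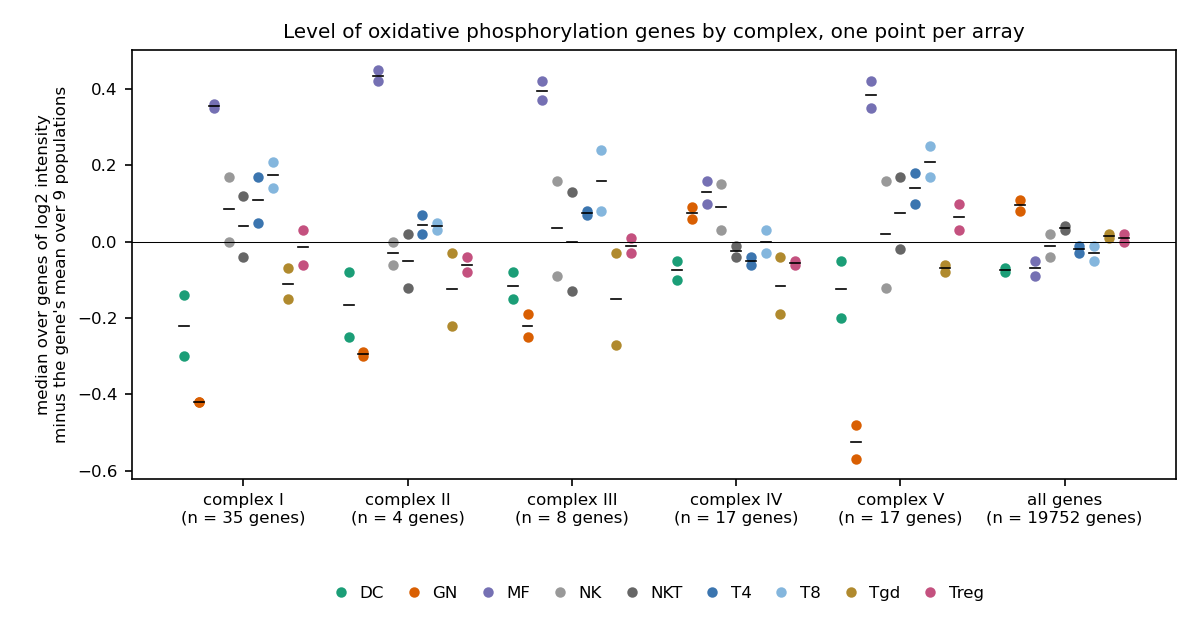
Median over the genes of each complex of log2 intensity minus the gene's mean over the 9 populations, 1 point per array and a line at the mean of the 2 arrays of a population, with all 19752 genes at the right. GN lies lowest in complexes I, II and V and MF highest in complexes I, II, III and V, while in complex IV GN lies at 0.09 and 0.06.

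All tests were run with limma on log2 intensity over all 19752 genes, with Benjamini-Hochberg adjusted p-values. A call required both a difference of 2-fold or more (for tests over several populations, a 2-fold range of their means) and an adjusted p under 0.05, and calls of any size, with the adjusted p alone, stand beside these. Whether the 2 arrays of a population are from different animals is not stated in the labels, so the p-values reflect only the spread among these arrays, part or all of which can be technical. The core subunits, the paired forms of a subunit and the largest changes were named by a rule, and other genes given with values, such as Ndufa9, Atp5l and those of the contrasts between lymphoid cells, were named after their values were seen. Values are on the log2 scale throughout, per array, or as a difference with its SE. In a sorted population, a lower transcript level in every cell and fewer cells with the transcript cannot be told apart, and array values do not show the RNA content of a cell.

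Over the 9 populations, 33 of the 81 subunit genes were called (40.7%), near the background of 39.0% of all genes. At any size 70 were called (86.4%), against 69.3% of all genes. The calls were 16 of 35 in complex I, 2 of 4 in complex II (Sdhc and Sdhd), 4 of 8 in complex III (Uqcr11, Uqcrb, Uqcrc1 and Uqcrc2), 3 of 17 in complex IV (Cox4i1, Cox5a and Cox6a1) and 8 of 17 in complex V. Ranges of the population means ran from 0.21 to 2.25, with a median of 0.86, against 0.71 over all genes. Without GN the count fell to 11 (background 26.5%; 62 at any size, background 53.2%), none of them in complex V, whose largest range over the other 8 populations was 0.98. MF was the highest population for 51 of the 81 genes, as it was for 14.7% of all genes. GN was the lowest for 42 (20.8% of all genes) and Tgd for 18 (3.01% of all genes).

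**Figure D2:**
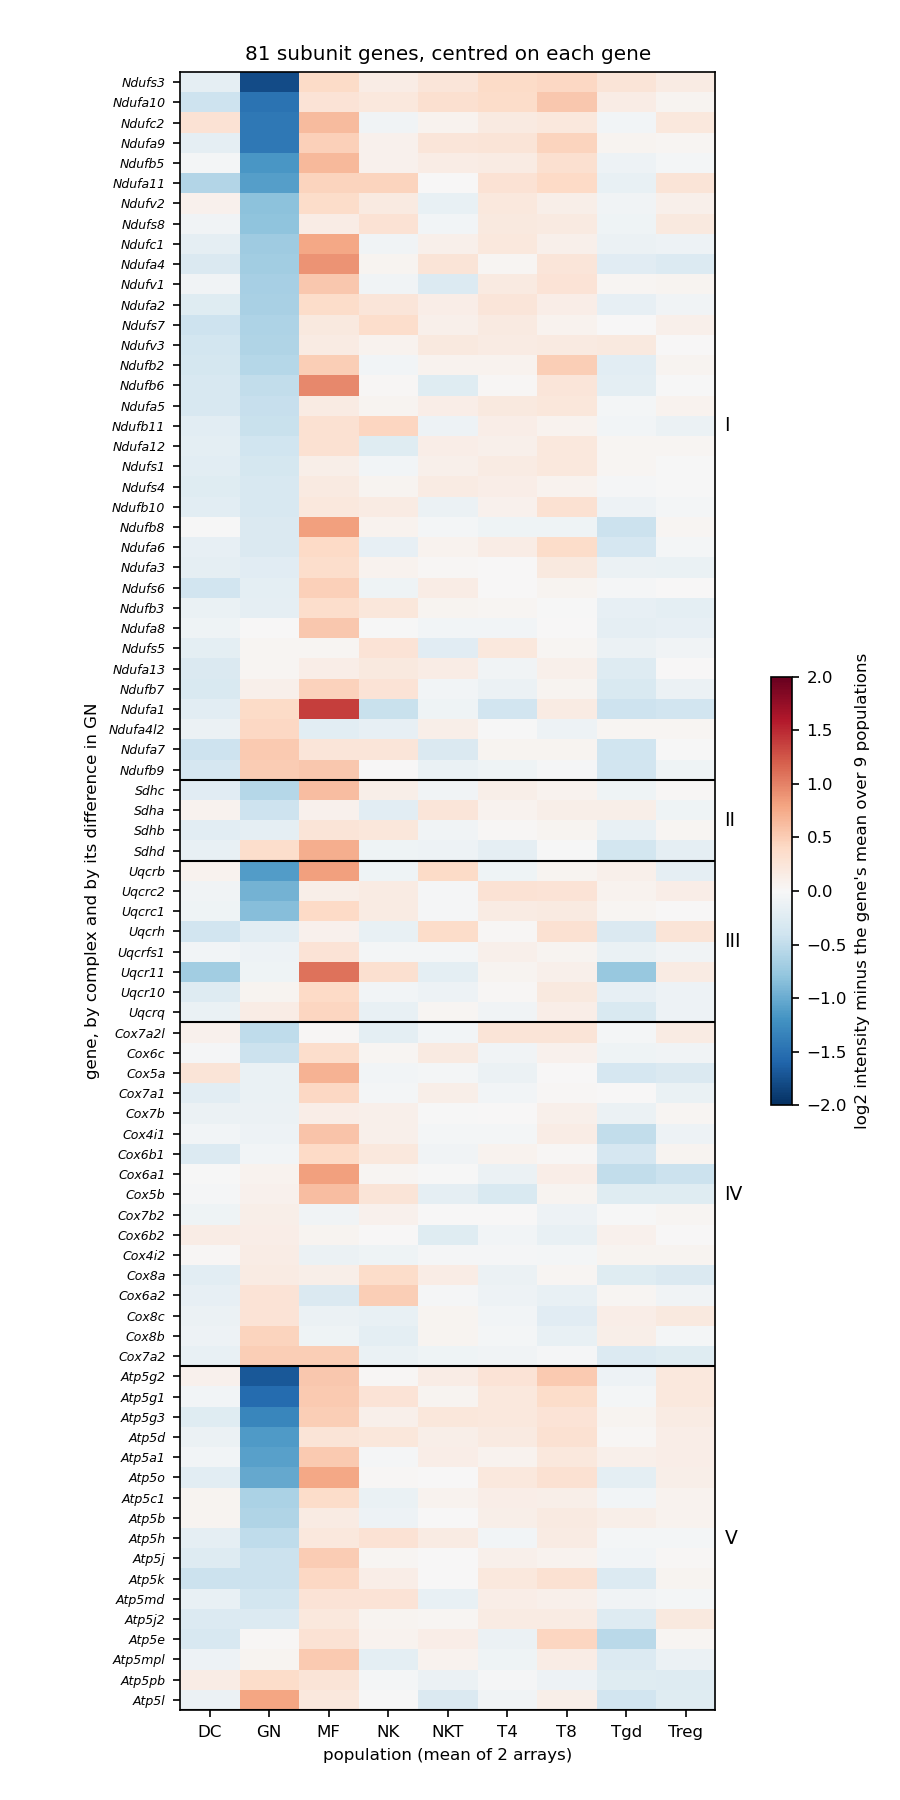
Each row is 1 of the 81 genes, by complex and then by its difference in GN, and each column a population (mean of 2 arrays). Colour is log2 intensity minus the gene's mean over the 9 populations, from -2 (blue) to 2 (red), and the blue GN column ends within each complex, at genes such as Atp5l, Ndufa7 and Ndufb9 that were higher in GN.

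Granulocytes had lower levels of most complex I and complex V genes. Against the mean of the other 8 populations, 14 of the 81 genes were at least 2-fold lower in GN (background 11.7% of all genes), and 45 were lower at any size (55.6%, against 27.9%). None was 2-fold higher (background 7.03%), while 11 were higher at an unadjusted p under 0.05, and 11 were higher at any size (background 37.8%; 17 of 81 after quantile normalization of the arrays). The median difference over the 81 genes was -0.36, and over all genes it was 0.13. By complex it was -0.50 in I, -0.33 in II, -0.18 in III, 0.09 in IV and -0.58 in V. Both GN arrays lay below all 16 other arrays for 34 of the 81 genes, against 16.8% of all genes, and above them for 3 (Atp5l, Cox8b and Ndufa4l2), against 20.2%.

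In complex I, 25 of 35 genes were lower in GN at any size and 3 were higher. Ndufs3, a core subunit of the arm that hands electrons to ubiquinone, had the largest difference. It stood at 7.85 and 7.99 in GN, 9.45 and 9.60 in DC, 10.05 and 10.15 in MF, 9.89 and 9.83 in NK, 9.84 and 10.08 in NKT, 10.16 and 10.03 in T4, 10.13 and 10.12 in T8, 9.91 and 10.02 in Tgd, and 9.86 and 9.90 in Treg. GN lay far below every other array, and the 2 DC arrays were the next lowest. The difference was -2.02 ± 0.08, a 4.05-fold lower level (adjusted p = 7.81e-13).

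Ndufa10, an accessory subunit of complex I, stood at 8.83 and 8.92 in GN and between 9.87 and 10.91 on the other 16 arrays (-1.66 ± 0.08, adjusted p = 6.7e-12). Ndufc2, a small subunit of its membrane arm, stood at 9.57 and 9.86 in GN and between 10.88 and 11.84 elsewhere (-1.62 ± 0.11). Ndufa9, at the joint of both arms, stood at 7.89 and 7.93 in GN and between 8.99 and 9.86 elsewhere (-1.61 ± 0.09). In none of these 3 genes did GN overlap with another array. The other genes called lower were Ndufb5 (-1.32 ± 0.10) and Ndufa11 (-1.24 ± 0.12 on the probe set used and -0.96 on its other probe set, which falls short of 2-fold).

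All 6 measured core subunits of complex I were lower in GN at any size, with a median of -0.82. After Ndufs3 they were Ndufv2 (-0.92 ± 0.08) and Ndufv1 (-0.75 ± 0.09), which form the site of NADH oxidation, Ndufs8 (-0.90 ± 0.10) and Ndufs7 (-0.69 ± 0.09), which hold iron-sulfur clusters, and Ndufs1 (-0.39 ± 0.12, adjusted p = 0.0106), the largest of them. Against these, 3 accessory genes were called higher at any size. Ndufa7 stood at 10.05 and 9.79 in GN and between 8.86 and 9.84 elsewhere (0.58 ± 0.13), Ndufb9 at 10.55 and 10.53 against 9.37 to 10.63 (0.58 ± 0.12), and Ndufa4l2, a dim gene, at 6.89 and 6.93 against 6.16 to 6.70 (0.47 ± 0.10). For Ndufa7 and Ndufb9 GN overlapped with other populations.

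Complex II was uneven. Sdhc, a membrane anchor, stood at 9.08 and 8.99 in GN and between 9.27 and 10.25 elsewhere (-0.65 ± 0.10, adjusted p = 1.86e-05). Sdha, the flavoprotein with the succinate site, stood at 9.56 and 9.55 against 9.64 to 10.27 (-0.46 ± 0.08). Sdhd, the other anchor, was higher in GN, at 9.36 and 9.08 against 8.44 to 9.61 (0.40 ± 0.08), while Sdhb, the iron-sulfur subunit, differed by -0.19 ± 0.09 and was not called (adjusted p = 0.0791). So the 2 anchor subunits, which sit together in the membrane, were called in opposite directions.

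In complex III the 2 genes called lower were Uqcrb and Uqcrc2. Uqcrb, which lies near the ubiquinone site, stood at 9.0 and 9.54 in GN and between 9.94 and 11.30 elsewhere (-1.24 ± 0.17, adjusted p = 3.99e-06). Uqcrc2, a core protein, stood at 9.87 and 10.01 against 10.71 to 11.24 (-1.07 ± 0.08, adjusted p = 1.56e-09). GN overlapped with no other array in either gene, but without GN replicate 1 the differences were -0.97 and -1.0, just short of 2-fold. Uqcrc1, the other core protein, was lower at any size (-0.95 ± 0.09). Uqcrfs1, the Rieske iron-sulfur protein, stood at 7.65 and 7.84 in GN, inside the range of 7.59 to 8.22 of the other arrays (-0.12 ± 0.10, adjusted p = 0.291).

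In complex IV no gene was 2-fold lower in GN, 2 were lower at any size and 5 were higher at any size. Cox7a2l, known as a factor that joins complexes III and IV, stood at 8.11 and 8.06 in GN against 8.32 to 8.93 elsewhere (-0.57 ± 0.08), and Cox6c at 11.63 and 11.74 (-0.48 ± 0.07). The nuclear subunits Cox4i1 (-0.12 ± 0.12), Cox5a (-0.15 ± 0.14) and Cox5b (0.09 ± 0.09), which surround the catalytic core, were not called, with adjusted p of 0.396, 0.363 and 0.383. For Cox4i1 the GN arrays stood at 9.10 and 8.68 and the others between 8.45 and 9.60. The genes higher at any size were Cox7a2 (0.55 ± 0.14), Cox8b (0.49 ± 0.08), Cox8c (0.31 ± 0.12), Cox6a2 (0.30 ± 0.10) and Cox8a (0.19 ± 0.07). Of these, Cox6a2 and Cox8b are muscle forms and Cox8c a testis form, and Cox8b was below the median of all genes in every population. The median of 0.09 for complex IV in GN counts muscle, testis and lung forms, all above 0 except Cox7a1. Of the common subunits, Cox7a2l, Cox6c, Cox5a, Cox7b, Cox4i1 and Cox6b1 lay below 0 (-0.57 to -0.07). Cox7a2, Cox8a, Cox5b and Cox6a1 lay above 0 (0.08 to 0.55).

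In complex V the 3 genes for the c subunit, which forms the ring turned by protons, had a median difference of -1.72 in GN, the lowest of the groups of subunits compared by role. Atp5g1, Atp5g2 and Atp5g3 are known to encode the same mature protein behind different import sequences. Atp5g2 stood at 9.74 and 9.75 in GN, 11.51 and 11.58 in DC, 11.97 and 12.01 in MF, 11.61 and 11.36 in NK, 11.44 and 11.76 in NKT, 11.63 and 11.81 in T4, 11.99 and 11.94 in T8, 11.23 and 11.46 in Tgd, and 11.68 and 11.64 in Treg. The 2 GN arrays were nearly equal and lay well below the lowest other array, of Tgd. The difference was -1.92 ± 0.08, a 3.78-fold lower level (adjusted p = 1.91e-12).

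Atp5g1 stood at 9.81 and 9.66 in GN and between 11.17 and 11.81 elsewhere (-1.72 ± 0.12, 3.3-fold lower), and Atp5g3 at 9.12 and 9.07 against 10.07 to 10.96 (-1.47 ± 0.08, 2.77-fold lower). All 3 ring genes were thus called, with no overlap between GN and the rest. In the F1 head, which makes ATP, 4 of 5 genes were lower at any size: Atp5d (-1.27 ± 0.07), Atp5a1 (-1.21 ± 0.09), Atp5c1 (-0.72 ± 0.08) and Atp5b (-0.68 ± 0.07). Atp5e, the smallest head subunit, differed by 0.03 ± 0.20 and was not called (adjusted p = 0.911). In the peripheral stalk, which holds the head still, Atp5o was 2-fold lower (-1.16 ± 0.10), Atp5h (-0.58 ± 0.07) and Atp5j (-0.49 ± 0.08) were lower at any size, and Atp5pb was higher at any size (0.42 ± 0.10).

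Among the 5 small membrane subunits of complex V, 3 were lower in GN at any size and Atp5l was higher. Atp5l, the g subunit that helps ATP synthase form dimers, stood at 9.87 and 9.80 in GN and between 8.47 and 9.28 elsewhere. Both GN arrays lay above all others, and the difference was 0.88 ± 0.10, a 1.84-fold higher level (adjusted p = 5.87e-07). It was the largest difference upward of any of the 81 genes in GN, short of the 2-fold minimum. Atp5l had the most probe sets of the 81 genes, 6, and all of them gave a difference between 0.836 and 0.97. Whether the 6 read separate transcripts was not tested, so their closeness adds no separate evidence.

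**Figure D3:**
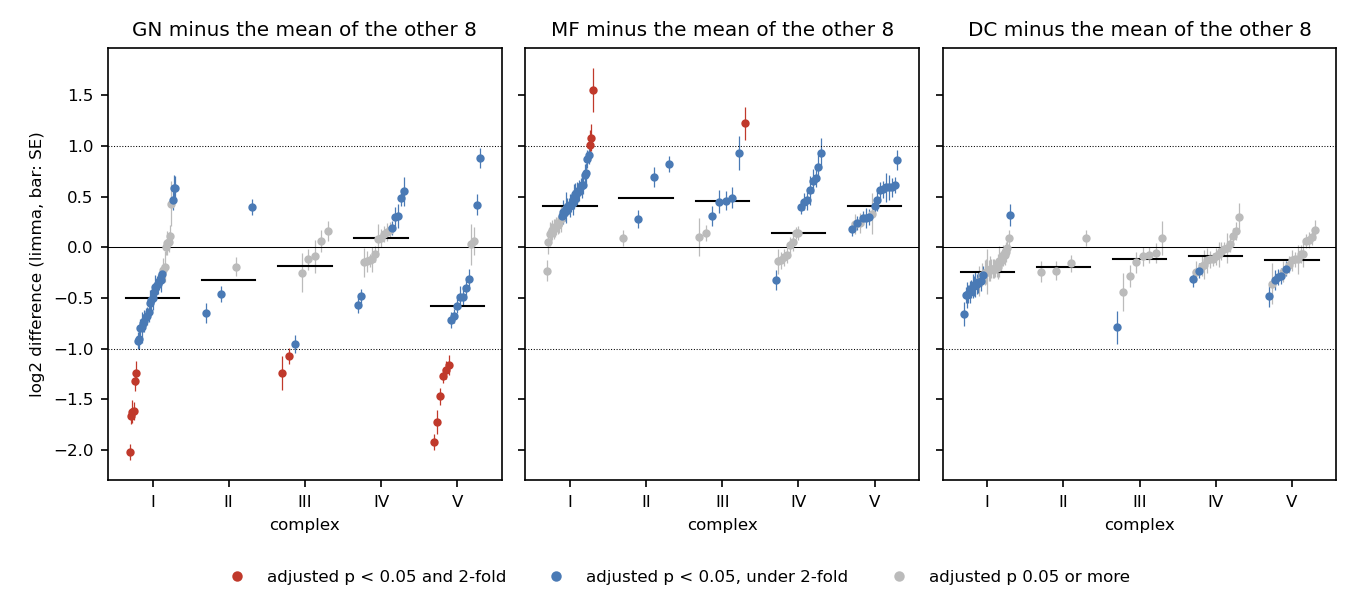
Log2 difference of each gene in GN, MF and DC from the mean of the other 8 populations, with its SE from limma, by complex. Black lines mark the median of a complex, dotted lines 2-fold, red points calls of at least 2-fold and blue points calls of any size. The red points in GN all lie in complexes I, III and V, and those in MF are Ndufa1, Ndufb6, Ndufa4 and Uqcr11.

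Peritoneal macrophages had broadly higher levels of subunit genes, by small steps. Against the mean of the other 8 populations, 55 of 81 genes were higher in MF at any size (67.9%, against a background of 22.2%). Only 4 were at least 2-fold higher (4.94%, against 7.56% of all genes), so the 2-fold count was below the background. None was 2-fold lower (background 4.19%), 2 were lower at an unadjusted p under 0.05 and 1 of these, Cox6a2, was lower at any size (-0.32 ± 0.10, background 25.5%). The median difference was 0.41, against -0.08 over all genes, and by complex it was 0.41 in I, 0.49 in II, 0.45 in III, 0.14 in IV and 0.41 in V. With GN left out of the reference, the median was 0.34, with 50 genes higher at any size and 3 at least 2-fold. Both MF arrays lay above all 16 others for 33 of the 81 genes (10.4% of all genes) and below them for none (9.19%).

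Ndufa1, an essential small subunit of the membrane arm of complex I, had the largest difference in MF. It stood at 8.50 and 8.62 in MF, 7.46 and 7.67 in GN, 7.09 and 6.84 in DC, 7.33 and 6.16 in NK, 6.87 and 7.30 in NKT, 6.74 and 6.85 in T4, 7.39 and 7.29 in T8, 7.21 and 6.30 in Tgd, and 6.96 and 6.65 in Treg. MF lay above all other arrays, with GN next, and the 2 NK arrays differed by 1.17, the largest gap between paired arrays of any of the 81 genes. The difference was 1.55 ± 0.22, a 2.94-fold higher level (adjusted p = 1.25e-05).

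Uqcr11, a small subunit of complex III, stood at 10.96 and 11.01 in MF and between 8.71 and 10.27 elsewhere (1.22 ± 0.16, adjusted p = 5.14e-06). Ndufb6 of complex I stood at 10.24 and 10.10 against 8.56 to 9.57 (1.08 ± 0.13), and Ndufa4, long listed with complex I and now also counted with complex IV, at 9.23 and 9.19 against 7.52 to 8.73 (1.01 ± 0.15). None of the 3 overlapped with another population. After quantile normalization of the arrays 2 genes passed the 2-fold minimum in MF, with Ndufb6 at 0.99.

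The core subunits also leaned to MF. In complex I, 3 of the 6 were higher at any size: Ndufv1 (0.61 ± 0.09), Ndufs3 (0.43 ± 0.08) and Ndufv2 (0.41 ± 0.08), while Ndufs7 (0.22 ± 0.09), Ndufs8 (0.17 ± 0.10) and Ndufs1 (0.13 ± 0.12) were not called. With GN left out of the reference, 2 of the 6 were higher at any size, and the median of the 6 was 0.16 in place of 0.32. For Ndufs3, T4 replicate 2, at 10.16, lay above the MF arrays. In complex II, Sdhd was higher by 0.82 ± 0.08, Sdhc by 0.69 ± 0.10 and Sdhb by 0.28 ± 0.09, and Sdha, at 0.09 ± 0.08, was not called (adjusted p = 0.393). Sdhd was therefore higher at any size in both MF and GN. In complex III, Uqcrb (0.93 ± 0.17), Uqcrc1 (0.46 ± 0.09) and Uqcrfs1 (0.31 ± 0.10) were higher, and Uqcrc2 (0.14 ± 0.08) was not called. In complex V, 14 of 17 genes were higher and none lower, led by Atp5o (0.86 ± 0.10), with the ring genes at 0.61 ± 0.08 for Atp5g2, 0.59 ± 0.12 for Atp5g1 and 0.56 ± 0.08 for Atp5g3, and the head genes Atp5a1, Atp5c1 and Atp5b at 0.59, 0.41 and 0.18. With GN left out of the reference, the ring genes were at 0.37 to 0.38, and 12 of the 17 genes were higher at any size.

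In complex IV 8 of 17 genes were higher in MF at any size. Cox6a1, the common form of subunit VIa, stood at 10.11 and 10.19 in MF and between 8.66 and 9.66 elsewhere (0.93 ± 0.15), above every other array. Cox5a (0.79 ± 0.14), Cox5b (0.68 ± 0.09) and Cox4i1 (0.65 ± 0.12) were higher too. The complex held 4 of the 5 genes whose level was below the median of all genes in every population (Cox6b2, Cox7a1, Cox7b2 and Cox8b; the other is Ndufa4l2). Over its 13 brighter genes the median difference in MF was 0.40, in place of 0.14 over all 17, and in GN it was 0.08. The 13 still held the muscle form Cox6a2, the testis form Cox8c and the lung form Cox4i2.

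Cell cycle genes were higher in MF, and also in GN and DC. Of 12 on the list, 12 were higher in MF at any size (background 22.2%) and 11 at least 2-fold, with a median difference of 1.68. In GN 12 were higher at any size (background 37.8%) and 4 at least 2-fold (median 0.94), and in DC 9 (background 14.1%) and 4 (median 0.78). Their summed intensity was 7400 to 10913 on the MF arrays against 1381 to 5787 on the others. Of 6 red blood cell and platelet markers, 1 was 2-fold higher in MF, Pf4 (6.49 ± 0.16). The other 5 differences were below 0, and 3 of these markers were lower at any size (background 25.5%). In GN 3 of the 6 were higher at any size (background 37.8%) and none lower (background 27.9%). At least 2-fold higher there (background 7.03%) were Ppbp (4.12 ± 0.48) and Gp9 (1.24 ± 0.13). In DC 3 were higher at any size (background 14.1%) and 1 lower (background 19.9%), with Ppbp 2-fold higher (2.46 ± 0.48, background 5.31%). The summed intensity of the 6, with Pf4 included, was 5875 to 6672 in MF against 622 to 2400. The part of either list in the subunit levels was not tested.

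**Figure D4:**
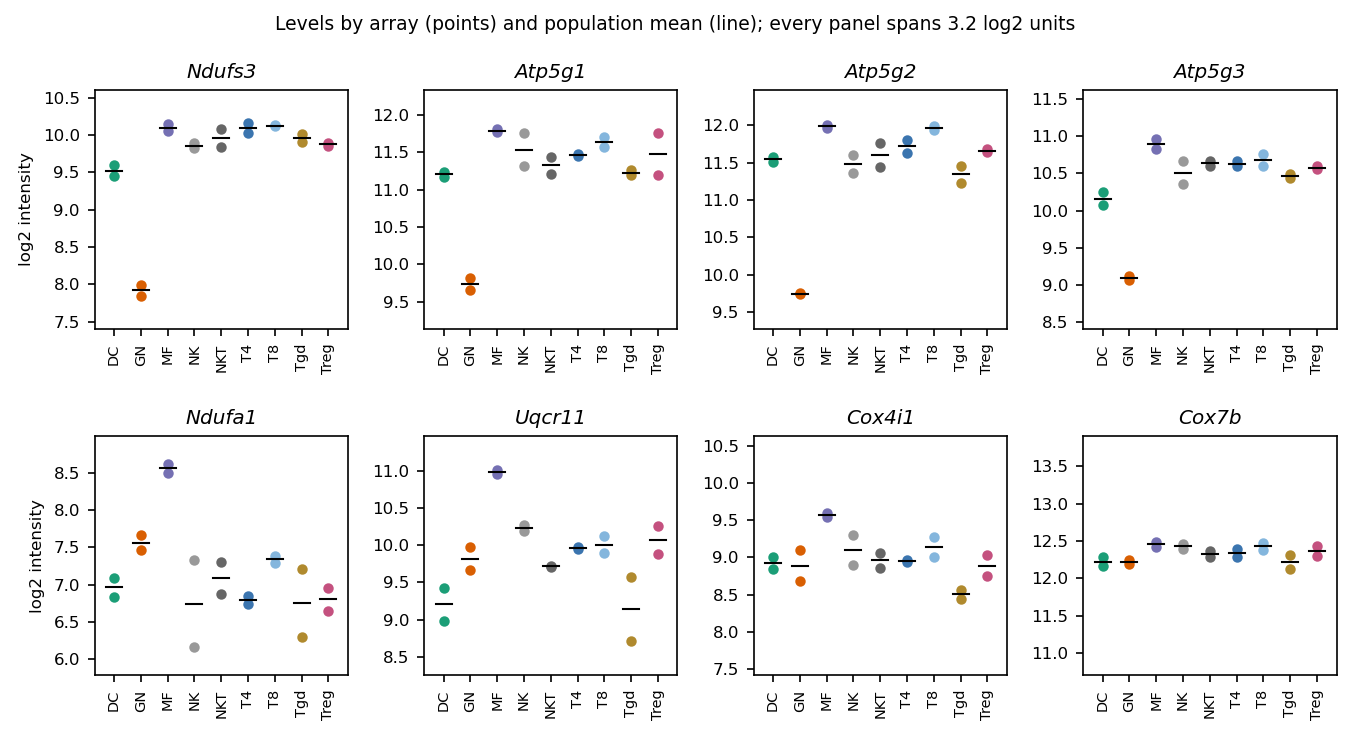
Log2 intensity of 8 genes on every array (points) and the mean of each population (line), with panels of equal height. Ndufs3 and the 3 Atp5g genes are low in GN, Ndufa1 and Uqcr11 are high in MF, Cox4i1 in GN lies among the other populations, and Cox7b spans only 12.12 to 12.49.

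Dendritic cells leaned lower, without a 2-fold call. Against the other 8 populations, 21 of the 81 genes were lower in DC at any size (25.9%, background 19.9%) and 1, Ndufc2, was higher (0.32 ± 0.11, adjusted p = 0.0357, background 14.1%). None was 2-fold lower (background 2.41%) or 2-fold higher (background 5.31%), with 34 lower and 1 higher at an unadjusted p under 0.05. The median difference was -0.19, against -0.09 over all genes, and 13 of the 21 genes belonged to complex I. With GN left out of the reference, 33 were lower at any size and the median was -0.22. After quantile normalization of the arrays 32 were lower at any size, and Ndufc2 was no longer called.

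Uqcr11 was the gene furthest below the other populations, at 8.98 and 9.43 in DC (-0.79 ± 0.16, adjusted p = 0.000805), followed by Ndufa11 at 9.63 and 9.89 (-0.66 ± 0.12, adjusted p = 0.000272). For Uqcr11 the DC arrays overlapped with Tgd, at 9.58 and 8.71, and for Ndufa11 they lay above GN, at 9.26 and 9.23. The other probe set of Ndufa11 gave a smaller difference, with means of 9.656 in DC, 9.187 in GN and 9.909 to 10.419 in the other populations. The DC arrays differed in granulocyte markers, whose summed intensity was 8691 on replicate 1 and 30710 on replicate 2, against 91105 to 103151 in GN and 744 to 2634 elsewhere. All 12 markers were at least 2-fold brighter on replicate 2, with a median difference of 1.92, while the 81 subunit genes had a median of 0.14 and none differed 2-fold. Without replicate 2, 1 gene was 2-fold lower in DC. B cell markers were raised on both DC arrays: 8 of 9 were higher at any size and 5 at least 2-fold, with summed intensities of 3806 and 3740 against 750 to 2982 elsewhere. The part of either set of markers in the DC values was not tested.

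Set directly against DC, MF was higher for 59 of the 81 genes at any size (72.8%, background 19.5%) and lower for none (background 14.0%; none at an unadjusted p under 0.05). At least 2-fold higher were 5 genes (background 5.89%), and none was 2-fold lower (background 4.97%). They were Uqcr11 (1.78 ± 0.21, adjusted p = 2.7e-06), Ndufa1 (1.59 ± 0.29), Ndufb6 (1.28 ± 0.17), Ndufa4 (1.19 ± 0.21) and Ndufa11 (1.03 ± 0.16). On the other probe set of Ndufa11 the means were 10.419 in MF and 9.656 in DC, which falls short of 2-fold. Uqcr11 was thus 3.43-fold higher in MF. The median difference was 0.54 over the 81 genes and 0.01 over all genes. The 2-fold count was 3 without DC replicate 1 and 8 without DC replicate 2.

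The 6 lymphoid populations were close to each other. Over them 1 of 81 genes, Uqcr11, was called (background 9.95%), and 16 were called at any size (19.8%, background 26.3%). Both shares lay below the background. Uqcr11 stood at 9.58 and 8.71 in Tgd, 10.19 and 10.27 in NK, 9.71 and 9.72 in NKT, 9.98 and 9.95 in T4, 9.89 and 10.12 in T8, and 9.88 and 10.26 in Treg (range 1.09, adjusted p = 0.00797). Its Tgd arrays were far apart, and without Tgd replicate 3 no gene was called, while 3 were without Tgd replicate 2 and 2 without NK replicate 2.

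Gamma delta T cells leaned lowest among lymphoid cells. Against the mean of the other 5, none of the 81 genes was 2-fold changed in Tgd (background 0.78%; 30 at an unadjusted p under 0.05), and 8 were lower at any size (background 2.2% in that direction, 5.29% in either). These were Uqcr11 (-0.85 ± 0.17), Cox4i1 (-0.51 ± 0.12), Atp5k (-0.43 ± 0.11), Cox6b1 (-0.40 ± 0.09), Ndufb8 (-0.40 ± 0.09), Atp5j2 (-0.39 ± 0.11), Atp5g2 (-0.34 ± 0.09) and Cox8a (-0.27 ± 0.07). Cox4i1 stood at 8.56 and 8.45 in Tgd and between 8.68 and 9.60 on every other array. In all, 69 of the 81 differences in Tgd were below 0, with a median of -0.16, against 0.01 over all genes. Without Tgd replicate 2, 2 genes were at least 2-fold lower. B cell markers were raised in the same arrays: 7 of 9 were higher in Tgd at any size and 3 at least 2-fold, and their summed intensity was 2773 and 2982 in Tgd against 898 to 1947 in the other lymphoid arrays. Their part in the Tgd values was not tested.

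CD8+ T cells leaned the other way, with 73 of 81 differences above 0 and a median of 0.13 (-0.04 over all genes). None was 2-fold changed (background 1.52%; 21 at an unadjusted p under 0.05), and 4 were higher at any size (background 5.4% in that direction, 11.9% in either), a share near the background: Ndufb2 (0.51 ± 0.11), Ndufa6 (0.43 ± 0.12), Atp5g2 (0.40 ± 0.09) and Ndufa10 (0.31 ± 0.08). NK cells had 11 calls of any size (background 21.8%), 8 higher (background 11.2%) and 3 lower (background 10.6%), and none of 2-fold (background 4.23%; 21 at an unadjusted p under 0.05). Among the 8 were the heart and muscle form Cox6a2 (0.54 ± 0.10), at 8.79 and 9.18 in NK against 8.34 to 8.62 in the other lymphoid populations, and Cox8a (0.45 ± 0.07), at 11.82 on both arrays against 11.06 to 11.64. The 3 lower were Ndufa12 (-0.35 ± 0.09), Cox7a2l (-0.31 ± 0.08) and Sdha (-0.30 ± 0.09). The NK arrays differed from each other by a median of 0.25 over the 81 genes without regard to sign, the most of any population.

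The remaining T cells differed little. NKT had 2 genes lower at any size (background 5.8% in that direction, 11.1% in either), Ndufv1 (-0.36 ± 0.09) and Ndufv2 (-0.25 ± 0.08), which encode adjoining subunits, and Treg had 1 (background 4.56% in that direction, 9.34% in either), Cox8a (-0.32 ± 0.07). T4 had none in either direction (background 8.83%), nor had Treg against T4 (background 3.19%). No gene was 2-fold changed in NKT (background 1.8%), T4 (1.33%), Treg (1.75%) or Treg against T4 (0.876%), with 10, 5, 4 and 2 genes at an unadjusted p under 0.05. These counts do not show that the populations have equal levels.

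The forms of a subunit did not all have the same calls. Cox4i1 ranged over 1.07 between Tgd and MF, while Cox4i2, its lung form, ranged over 0.26, from 7.09 to 7.58 on all arrays (adjusted p = 0.426). Cox6a1 was highest in MF, and Cox6a2 was lowest there, at 8.30 and 8.13, and both were called in MF at any size, in opposite directions. Cox7a2 was higher in GN and MF (0.55 ± 0.14 and 0.56 ± 0.14), Cox7a2l was lower in GN, and Cox7a1, a dim muscle form, was higher in MF (0.47 ± 0.10) and not called in GN or DC. Cox6b1 was higher in MF (0.45 ± 0.08) and lower in DC (-0.31 ± 0.08), and Cox6b2, a testis form, was not called over the 9 populations (range 0.38, adjusted p = 0.0991). Ndufa4 was lower in GN (-0.79 ± 0.15) and Ndufa4l2 higher. The 3 Atp5g genes were each lower in GN and higher in MF.

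The 3 genes with the smallest ranges, Cox4i2 among them, all belonged to complex IV. Cox7b, a small subunit that is common to all tissues, was bright everywhere, at 12.17 and 12.28 in DC, 12.24 and 12.19 in GN, 12.49 and 12.42 in MF, 12.40 and 12.46 in NK, 12.37 and 12.28 in NKT, 12.28 and 12.40 in T4, 12.38 and 12.48 in T8, 12.31 and 12.12 in Tgd, and 12.30 and 12.44 in Treg. MF lay above DC, GN, NKT, T4 and Tgd and overlapped with NK, T8 and Treg (range of means 0.25, adjusted p = 0.0557). Its testis form Cox7b2 had the smallest range, 0.21 (adjusted p = 0.489), at a level between 4.61 and 4.98 that lay below the median of all genes. At so low a level a small range does not show a steady transcript level.

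Most of the genes on 6 related lists were below the other populations in GN, and the counts are read against 27.9% of all genes lower at any size, 11.7% at least 2-fold lower and 37.8% higher at any size. Of 13 citric acid cycle genes 12 were lower at any size, 5 at least 2-fold and 1 was higher, with a median of -0.91, led by Idh3a (-2.14 ± 0.10), a subunit of isocitrate dehydrogenase. Of 77 mitochondrial ribosomal protein genes, whose ribosomes translate the subunits encoded by mitochondrial DNA, 60 were lower at any size and 5 higher, 29 were 2-fold lower and 1 was 2-fold higher (Mrpl33, 1.80 ± 0.11), with a median of -0.76 and Mrps18b at -2.38 ± 0.11. Of 42 assembly factors 30 were lower at any size and 7 higher, 11 were 2-fold lower, led by Sdhaf1 (-2.18 ± 0.12), which helps mature complex II, and 1 was 2-fold higher, the copper chaperone of complex IV Cox17 (1.76 ± 0.13). Of 15 regulators of mitochondrial biogenesis 9 were lower at any size and 2 higher, and 5 were 2-fold lower, among them Myc (-3.54 ± 0.11) and the mitochondrial DNA factor Tfam (-2.12 ± 0.18). Of 17 electron carriers and partners 11 were lower at any size and 3 higher. Of these 17, 2 were 2-fold lower, a share near the background: Coq5 (-1.52 ± 0.09) and Pdss2 (-1.31 ± 0.11), both of ubiquinone synthesis. Of 9 uncoupling and nucleotide carriers 6 were lower at any size and 2 higher, and 3 were 2-fold lower, with the ADP/ATP carrier Slc25a4 at -2.22 ± 0.13.

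In MF the same lists leaned higher, except the regulators, with a median of -0.14. Of the mitochondrial ribosomal proteins, 54 of 77 were higher at any size (background 22.2%), 1 was lower, and 3 were at least 2-fold higher, below the background of 7.56% (median 0.37). The citric acid cycle had 8 of 13 higher at any size and none lower (median 0.33), and 1 was 2-fold higher, Idh2 at 1.36 ± 0.11. Of the assembly factors 17 of 42 were higher at any size and 2 lower, with no 2-fold call (median 0.20). With GN left out of the reference, the mitochondrial ribosomal proteins had 39 higher and 3 lower at any size (median 0.27). The citric acid cycle then had 7 higher and 1 lower (median 0.27), and the assembly factors had 14 higher and 6 lower (median 0.09). Atpif1, the natural inhibitor of ATP synthase, was the partner most raised in MF (1.52 ± 0.09), and Vdac3 (1.45 ± 0.11) and Vdac1 (1.05 ± 0.10), pores of the outer membrane, were the carriers most raised. In DC, Atpif1 was 2-fold higher too (1.01 ± 0.09), while no complex V subunit was.

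**Figure D5:**
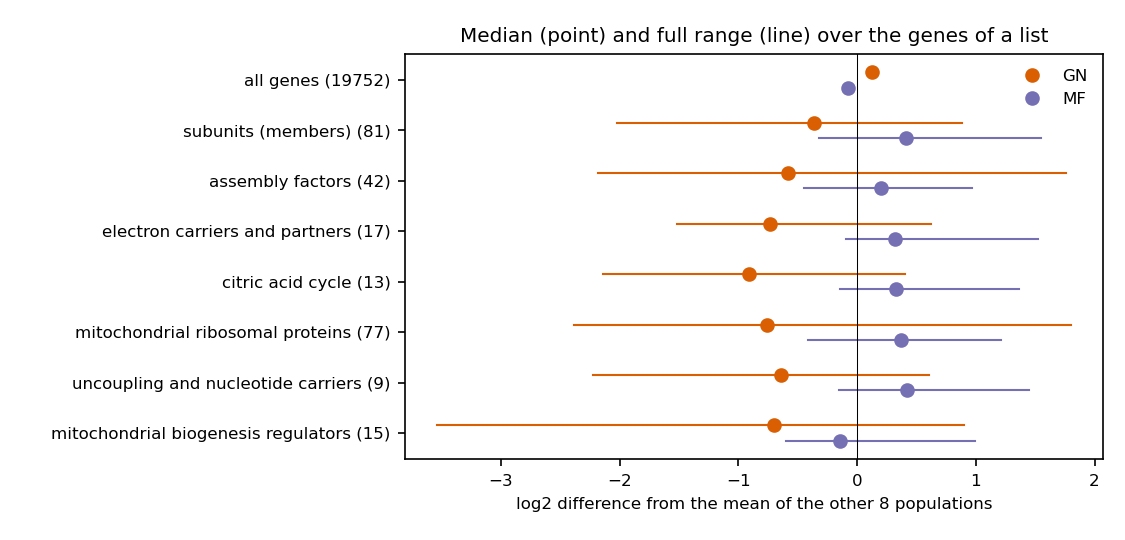
Median (point) and full range (line) of log2 differences in GN and MF from the mean of the other 8 populations, for the 81 subunit genes, 6 related lists with the number of genes in brackets, and all genes (median only). In GN the medians of the 6 related lists lie between -0.91 and -0.58 and that of the subunits at -0.36.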

How the data were processed

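Transcript levels were measured on 18 1-colour arrays, 2 per population, grouped by title. The deposited values were intensities on a linear scale, for which the submitters' processing notes name Affymetrix Power Tools and RMA, a method that corrects background, normalizes arrays and summarises each probe set. Tool versions are not given in the sources used here. Whether the arrays were normalized as a single set is not stated either. RMA understates the differences of dim genes. The log2 of each deposited intensity was taken here. Names of probe sets came from the platform annotation in GEO, checked by Entrez number against RefSeq (GRCm38.p6). Of 24922, 21425 had 1 gene symbol, 1399 had several and 2098 none listed, and only the first were used. A gene with several probe sets was represented by the one with the highest mean (16 of the 81 had more than 1). Whether probes also bind transcripts of pseudogenes was not tested.

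Tests used limma 3.58.1 under R 4.3.3 (1 mean per population on all 18 arrays, eBayes with a trend, 9 residual and 7.69 prior degrees of freedom), and the script was tested on simulated data. Median intensity was 138.5 to 151.0 per array, and r between paired arrays was 0.9901 to 0.996. The 10 measured sort genes were brightest in a population sorted on them. No gene of the gamma delta receptor or of TCRB was among the 10, so those gates were not checked. The number of arrays limits the precision.

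Examples were chosen by a rule: the largest ranges and differences per complex among calls, the smallest ranges, the core subunits, paired forms of a subunit, and up to 3 genes per related list. The genes, lists and rule were chosen with earlier results of these data known. Alternatives are described in the closing section.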

Additional observations from a re-analysis of the deposited data

How the results depend on the processing

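The counts at 2-fold moved most with the fold minimum. With no minimum they were 70 genes over the 9 populations, 62 without GN, 16 over the lymphoid populations, 45 lower and 11 higher in GN, 55 higher and 1 lower in MF, 21 lower and 1 higher in DC, 59 higher in MF than in DC, 11 in NK, 2 in NKT, 4 in T8, 8 in Tgd and 1 in Treg. With at least 1.5-fold they were 65, 45 and 8 for the tests over populations, 27 lower and 1 higher in GN, 23 higher in MF, 2 lower in DC, 35 higher in MF than in DC and 1 in Tgd. Leaving out each array in turn gave 0 to 3 genes over the lymphoid populations, 0 to 1 lower in DC, 3 to 8 higher in MF than in DC and 0 to 2 in Tgd. After quantile normalization 2 genes were 2-fold higher in MF, calls of any size in DC were 32 lower and 0 higher (Ndufc2 was lost), 17 were higher in GN at any size, and medians were -0.36, -0.23 and -0.72 for complexes I, II and V in GN and 0.31, 0.39, 0.33, 0.07 and 0.30 for complexes I to V in MF. The cause was not tested. The mean in place of the median gave -0.23 and -0.44 for complexes II and III in GN and 0.27 for complex IV in MF, and without dim genes complex IV in MF was at 0.40. In DC, leaving out an array gave -0.33 to -0.17 for complex I and -0.27 to -0.10 for complex II, and with GN left out of the reference complex V was at -0.29. The alternatives also included array weights, no trend, the mean of a gene's probe sets and lymphoid arrays alone. A sign change was sought in medians by complex larger than the spread between paired arrays, and in called differences of named genes. None was found, and counts and ranges cannot show one. With the replicate number as a replicate block 32 genes were called over the 9 populations, 14 lower in GN and 4 higher in MF. The numbers were not shown to pair the arrays: correlations between same-numbered arrays were over 0.1 in 8 of 18 pairs of populations, from -0.161 to 0.468.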
